A study of Mus musculus with 19 samples.

Results

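The Nrf2 antioxidant response was followed through 10 genes in GFP-sorted cells of dorsal root ganglia (DRGs), which the labels call DRG neurons. The genes were the transcription factor gene Nfe2l2, its regulators Keap1 and Sqstm1, and 7 genes known as Nrf2 targets, Hmox1, Nqo1, Gclc, Gclm, Txnrd1, Srxn1 and Prdx1. They were chosen by name, with earlier results of these data known. All 10 were found by gene symbol among the 12629 genes of the expression table.

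The study asked which transcriptional changes accompany sensory axon regeneration driven by α9 integrin and kindlin-1, an adaptor that activates integrins. The left cervical DRGs were injected either with AAV5-fGFP alone or with AAV5-α9-V5 together with AAV5-kindlin1-GFP, and the dorsal roots of the injected ganglia were crushed at the same time or left intact. GFP-positive cells were sorted from the ganglia 8 weeks later and profiled by RNA-seq, so that every group shared the viral injection, the recovery time, the dissociation and the sort. The 19 libraries comprised 5 GFP-naive (fGFP, no crush), 6 α9k1-naive (α9 and kindlin-1, no crush), 4 GFP-crush (fGFP with crush) and 4 α9k1-crush (α9 and kindlin-1 with crush). The labels describe the animals as C57BL/6 mice, whereas the methods describe adult male Lewis rats, and the reads were aligned to the mouse genome. Promoter sequences and exon overlaps given below are those of the mouse reference and may not be those of the animals. The sort selected GFP, which was driven by the CMV promoter alone or fused to kindlin-1, whereas α9-V5 came from a separate vector with the CAG promoter, so the sort did not select cells for α9.

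Nrf2 is held in the cytoplasm by KEAP1, which presents it to a CUL3 ubiquitin ligase for degradation. Oxidants and electrophiles modify KEAP1, Nrf2 then accumulates in the nucleus, pairs with a small MAF protein and binds antioxidant response elements (AREs) near its target genes. In sensory neurons the pathway is known for its part in glutathione synthesis, in thioredoxin-based repair and in the breakdown of haem.

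The libraries held 36387140 to 87576777 read pairs, of which 47.5 to 54.1% aligned, and 3.87 to 4.05% of the aligned bases differed from the mouse genome. Levels below are the deposited normalized log2 values, on which 1 unit is a 2-fold difference, and they are compared between libraries and not between genes. The word called marks genes with a limma p below 0.1 after Benjamini-Hochberg adjustment across the whole table, from a model fitted to all 19 libraries with 4 group means and 3 principal components of the alignment and sequencing metrics as covariates. Fermt1, which encodes kindlin-1, had levels of 0.46 to 0.80 in GFP-naive, 0.42 to 0.72 in GFP-crush, 5.18 to 6.00 in α9k1-naive and 6.42 to 7.73 in α9k1-crush. Itga9, which encodes α9 integrin, ran from 0.90 to 2.40 in the GFP libraries and from 5.53 to 7.51 in α9k1-crush. In α9k1-naive Itga9 ran from 2.38 to 5.16, and its lowest library lay within the GFP-naive range. The summed level of 17 neuron markers, on a log2 scale, was 13.64 to 13.99 in GFP-naive, 13.29 to 13.68 in α9k1-naive and 14.16 to 14.57 in the crush groups, with 5 markers called lower and 2 higher for α9k1-naive against GFP-naive and 7 higher and 1 lower for GFP-crush against GFP-naive. Markers of other cells were also present. The summed level of 10 satellite glia markers was above that of the 17 neuron markers in 17 of the 19 libraries. It was so in 2 of the 4 α9k1-crush libraries and in every library of the other groups. Sums over different genes do not give the share of each cell type. The values thus describe the sorted cells as a whole and are not assigned to neurons. In bulk samples, fewer cells of a type and less RNA per cell cannot be told apart.

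The windows upstream of the genes were searched for the ARE core, TGACNNNGC, and for the AP-1 site, TGACTCA or its reverse complement TGAGTCA, on both strands. RefSeq promoters of GRCm38.p6, each covering 250 bases before to 50 bases after a gene start, were available for 8 of the 10 genes, with 3 for Txnrd1. Hmox1 and Gclc had no entry. The ARE core was found in the promoters of 5 genes, Nfe2l2, Gclm, Txnrd1, Srxn1 and Prdx1, while 12.4% of all 32851 promoters held it. The AP-1 site was found in Srxn1 and Prdx1, and in 5.20% of all promoters. Sequences are shown for Nfe2l2, Txnrd1 and Prdx1, the genes with an entry that were called in the comparison without crush, and for Gclm, which held the core but was not called. Capitals mark the matches, and each line gives the 250 bases before the start, 5′ to 3′ on the gene's strand. The stretches are chr2:75704664-75704913 on the minus strand for Nfe2l2, chr10:82858956-82859205 on the plus strand for the second Txnrd1 promoter, chr4:116685349-116685598 on the plus strand for Prdx1 and chr3:122245307-122245556 on the plus strand for Gclm.
Nfe2l2: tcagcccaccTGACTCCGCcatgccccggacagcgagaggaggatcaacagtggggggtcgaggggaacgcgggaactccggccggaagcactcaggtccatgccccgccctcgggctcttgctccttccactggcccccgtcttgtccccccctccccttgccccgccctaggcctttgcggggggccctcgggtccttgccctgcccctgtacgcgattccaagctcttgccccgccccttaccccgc
Txnrd1: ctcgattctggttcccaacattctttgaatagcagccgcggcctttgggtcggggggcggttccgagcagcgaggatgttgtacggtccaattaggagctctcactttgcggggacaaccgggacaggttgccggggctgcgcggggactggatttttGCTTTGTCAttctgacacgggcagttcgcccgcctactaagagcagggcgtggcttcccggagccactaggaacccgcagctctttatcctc
Prdx1: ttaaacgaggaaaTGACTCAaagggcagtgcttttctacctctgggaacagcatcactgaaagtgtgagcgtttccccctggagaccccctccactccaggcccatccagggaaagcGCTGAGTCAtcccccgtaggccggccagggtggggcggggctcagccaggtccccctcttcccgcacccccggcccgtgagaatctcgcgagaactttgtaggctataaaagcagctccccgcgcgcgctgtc
Gclm: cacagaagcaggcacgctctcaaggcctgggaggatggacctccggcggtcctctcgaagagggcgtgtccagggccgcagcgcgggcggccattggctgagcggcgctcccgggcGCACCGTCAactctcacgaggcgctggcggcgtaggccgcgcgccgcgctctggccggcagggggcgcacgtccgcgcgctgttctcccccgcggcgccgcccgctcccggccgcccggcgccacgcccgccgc
In Prdx1 the first capitals are an AP-1 site alone, and the second are an ARE core on the opposite strand that overlaps an AP-1 site. In Txnrd1 and Gclm the core lay on the opposite strand, and in Nfe2l2 on the gene's own strand. The Srxn1 promoter held AP-1 sites at positions -102 and -45 relative to the gene start and an ARE core at position 29. These matches describe letters in the windows and do not show binding.

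Without crush, Hmox1, Nfe2l2 and Txnrd1 rose with α9 integrin and kindlin-1. Prdx1 was called higher in the fit with covariates only, while its group means differed by -0.08 in the other direction. In that fit 4 of the 10 genes were thus called higher and 0 lower. The count was 2, Hmox1 and Nfe2l2, without α9k1-naive replicate 5 or without GFP-naive replicate 4. Over all genes 29.1% were called, 11.4% higher and 17.6% lower. The median log2 fold change was 0.16 over the 10 genes and -0.08 over all genes. Keap1, Sqstm1, Nqo1, Gclc, Gclm and Srxn1 were not called, with log2 fold changes between -0.12 and 0.21.

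Hmox1 encodes haem oxygenase 1, which opens the haem ring to give biliverdin, carbon monoxide and iron, and it differed most between the groups. Its levels in the 5 GFP-naive libraries were 5.43, 5.12, 4.97, 5.21 and 5.29, and the 6 α9k1-naive libraries ran from 8.41 through a median of 8.66 to 8.87. Every α9k1-naive library was far above every GFP-naive library. The log2 fold change was 3.34 ± 0.15 (SE; 95% interval 3.03 to 3.65), or 10.1-fold, with a limma adjusted p of 9.03e-10. The 2-sided exact permutation test of the deposited values gave p = 0.0022, the smallest that 5 and 6 libraries allow, and 0.015 after adjustment over all genes. The difference in means was 3.45 without covariates.

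The 4 GFP-crush libraries had Hmox1 levels of 5.30, 5.30, 5.16 and 4.87, within or just below the range of GFP-naive. The 4 α9k1-crush libraries had 6.77, 6.59, 6.45 and 6.38, above every GFP library and below every α9k1-naive library. Hmox1 was therefore higher with α9 and kindlin-1 in both conditions on the deposited values, but by 1.39 after crush against 3.45 without. With covariates the difference after crush was 0.77 and was not called. Between the α9k1 groups Hmox1 fell by 2.52 on the log2 scale (SE 0.26, 95% interval -3.08 to -1.96, limma adjusted p = 0.0003), and 9.74% of all genes were called in that comparison, 4.47% higher and 5.27% lower. The exact permutation p was 0.0048, the smallest possible for these groups. The α9k1 effect on Hmox1 after crush was lower than that without crush by a log2 difference of -2.57 ± 0.30 (SE, limma interaction adjusted p = 0.0018). Hmox1 was the only one of the 10 genes called in the interaction, where 2.2% of all genes were called, 1.35% higher and 0.847% lower.

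Nfe2l2, which encodes Nrf2 itself, followed the same order on a smaller scale. GFP-naive libraries had levels of 5.69, 5.73, 5.88, 5.94 and 5.72, and α9k1-naive libraries ran from 6.56 through a median of 6.86 to 7.03. The groups did not overlap, and the log2 fold change was 1.01 ± 0.16 (SE), or 2.01-fold (limma adjusted p = 0.0003). GFP-crush libraries had 5.26, 5.62, 5.62 and 5.57, all below GFP-naive, and α9k1-crush libraries had 5.94, 6.35, 5.78 and 5.87, all above GFP-crush. The lowest α9k1-crush values lay within the GFP-naive range. With covariates, neither the difference between the crush groups (log2 0.58 ± 0.34, SE, adjusted p = 0.65) nor that between the α9k1 groups (-0.64 ± 0.28, SE, adjusted p = 0.20) was called, although the latter was called at -0.74 without α9k1-crush replicate 2 (limma adjusted p = 0.068). Nor was Nfe2l2 called for GFP-crush against GFP-naive (-0.21 ± 0.16, SE, limma adjusted p = 0.38), although those libraries did not overlap (exact permutation p = 0.0079, adjusted 0.053).

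**Figure D1:**
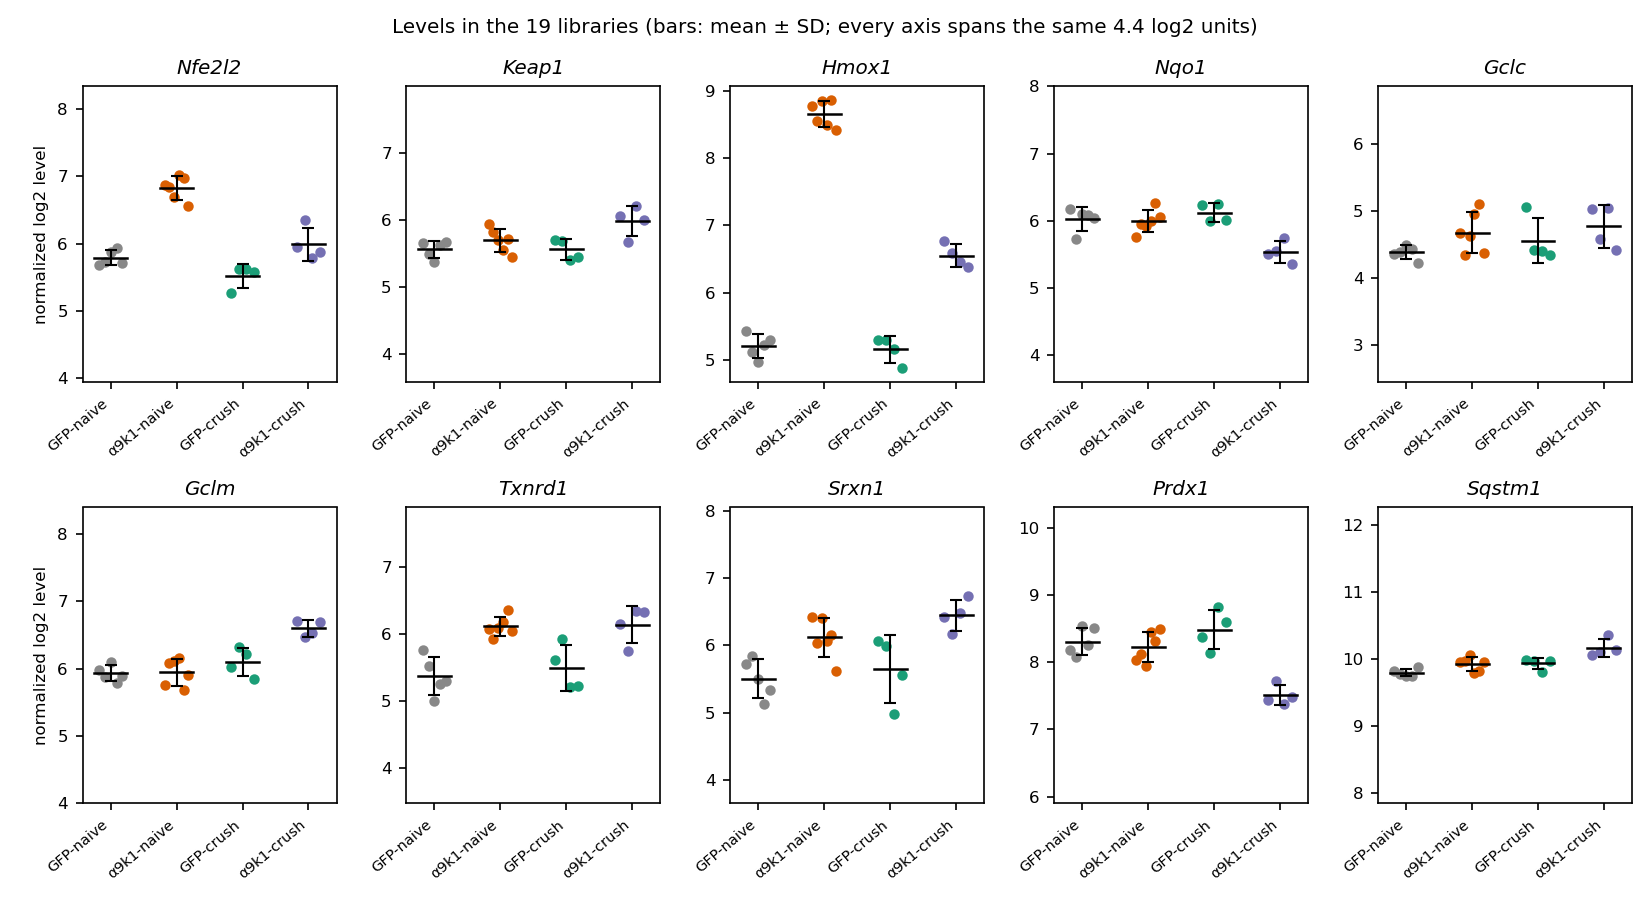
Normalized log2 levels of the 10 genes in each library (points), by group on the horizontal axis, with the mean and SD as bars; every vertical axis spans the same range. Hmox1 lies between 8.41 and 8.87 in α9k1-naive and between 4.87 and 5.43 in both GFP groups, whereas the other genes move by much less.

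Keap1, the adaptor that retains Nrf2, was not called in any comparison with covariates. Its levels were 5.37 to 5.67 in GFP-naive, 5.45 to 5.94 in α9k1-naive and 5.40 to 5.71 in GFP-crush. In α9k1-crush they were 6.05, 5.67, 6.21 and 6.01, so that 3 of the 4 libraries lay above all others and 1 lay within their range. Its log2 difference between the crush groups was -0.25 ± 0.25 (SE) with covariates and 0.42 without. Keap1 shares 510 of its 4693 exonic bases with the antisense gene Gm16754, and the library kit does not mark strand, so reads there cannot be assigned to either gene.

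Sqstm1 encodes p62, an autophagy receptor that binds KEAP1 and competes with Nrf2. It varied least, with levels of 9.75 to 9.88 in GFP-naive, 9.79 to 10.05 in α9k1-naive, 9.81 to 9.99 in GFP-crush and 10.06 to 10.36 in α9k1-crush. The α9k1-crush libraries lay above those of every other group. No comparison was called for Sqstm1 in the fit of all 19 libraries with covariates. There GFP-crush against GFP-naive gave 0.20 ± 0.09 (SE, limma adjusted p = 0.17). That comparison was called at 0.33 once libraries were centred on their medians (limma adjusted p = 0.038). It was also called at 0.26 once trends with GC content and length were removed and at 0.25 without α9k1-naive replicate 6. The interval of its difference between the crush groups ran from -0.55 to 0.32 on the log2 scale with covariates, whereas the difference was 0.23 without them (limma adjusted p = 0.038). It shares 580 of 3356 exonic bases with the antisense gene Mrnip.

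Txnrd1 encodes the cytosolic thioredoxin reductase, which uses NADPH to restore thioredoxin. The GFP-naive libraries had levels of 5.77, 5.52, 5.01, 5.26 and 5.30, and α9k1-naive libraries ran from 5.93 through a median of 6.09 to 6.35. The groups did not overlap, and the log2 fold change was 0.52 ± 0.20 (SE), or 1.43-fold (limma adjusted p = 0.076; exact permutation p = 0.0022). The GFP-crush libraries had 5.61, 5.93, 5.20 and 5.23, and the α9k1-crush libraries had 6.15, 5.75, 6.34 and 6.32. These overlapped by 1 library, and the difference between the crush groups was -0.05 ± 0.43 (SE) with covariates and 0.65 without. The call without crush was lost in 5 of 19 fits that each left out 1 library. The log2 fold change was then 0.47, 0.46 and 0.30 without α9k1-naive replicates 4, 5 and 6 (adjusted p = 0.12, 0.12 and 0.50), and 0.45 and 0.51 without GFP-naive replicates 4 and 5 (limma adjusted p = 0.20 and 0.10). It was also lost with library weights (0.42, limma adjusted p = 0.15).

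Srxn1, the sulfiredoxin that repairs overoxidised peroxiredoxins, had levels of 5.73, 5.84, 5.50, 5.12 and 5.34 in GFP-naive and ran from 5.62 through 6.11 to 6.42 in α9k1-naive. The difference was not called with covariates (log2 0.21 ± 0.22, SE, adjusted p = 0.54), and was 0.61 without them (limma adjusted p = 0.018). In GFP-crush the levels were 6.07, 5.99, 4.97 and 5.55, and in α9k1-crush they were 6.42, 6.16, 6.47 and 6.73. The α9k1-crush libraries lay above all GFP-crush libraries, yet the fitted difference was -0.16 ± 0.47 (SE) with covariates and 0.80 without.

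Prdx1, a peroxiredoxin that reduces hydrogen peroxide, gave opposite signs with and without covariates. GFP-naive libraries had levels of 8.18, 8.07, 8.53, 8.25 and 8.50, and α9k1-naive libraries ran from 7.95 through 8.22 to 8.49. The deposited values overlapped and their means differed by -0.08 (exact permutation p = 0.55), whereas the fit with covariates gave 0.26 ± 0.10 (SE, limma adjusted p = 0.072). That call was lost in 6 of 19 fits that each left out 1 library, namely α9k1-naive replicate 5 (0.25), GFP-crush replicates 2 and 3 (0.25 and 0.21) or GFP-naive replicates 1, 2 and 4 (0.21, 0.25 and 0.27). After crush the GFP libraries had 8.37, 8.14, 8.82 and 8.60, and the α9k1 libraries had 7.43, 7.72, 7.38 and 7.49. Every α9k1-crush library was thus below every other library, by 0.98 in the mean against GFP-crush, but the difference was -0.01 ± 0.21 (SE) once the covariates were included.

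Nqo1, a quinone reductase, had levels of 5.72 to 6.17 in GFP-naive, 5.77 to 6.26 in α9k1-naive and 6.00 to 6.25 in GFP-crush. The α9k1-crush libraries had 5.50, 5.55, 5.75 and 5.35, below every α9k1-naive and every GFP-crush library. The difference between the crush groups was -0.38 ± 0.28 (SE) with covariates (limma adjusted p = 0.74) and -0.59 without (adjusted p = 0.0008).

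Gclc and Gclm encode the catalytic and the modifier subunit of glutamate-cysteine ligase, which makes the first and rate-limiting step of glutathione synthesis. Gclc ran from 4.22 to 4.50 in GFP-naive, 4.35 to 5.10 in α9k1-naive, 4.35 to 5.05 in GFP-crush and 4.41 to 5.05 in α9k1-crush, and its groups overlapped in all 4 comparisons. None was called, although the log2 difference between the α9k1 groups was 0.73 ± 0.35 (SE, limma adjusted p = 0.24) with covariates and 0.09 without. Gclm ran from 5.79 to 6.10 in GFP-naive, 5.68 to 6.15 in α9k1-naive and 5.85 to 6.32 in GFP-crush. Its levels in α9k1-crush were 6.72, 6.47, 6.53 and 6.70, above every other library. With covariates the difference from GFP-crush was 0.42 ± 0.33 (SE, limma adjusted p = 0.76) and without them 0.50 (adjusted p = 0.0034). Gclm shares 296 of 6291 exonic bases with the antisense gene Gm17494 and 244 with Gm6061 on its own strand.

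After crush, none of the 10 genes was called for α9k1-crush against GFP-crush with covariates, where 0.911% of all genes were called, 0.728% higher and 0.182% lower, and 1 gene, Hmox1, had an unadjusted limma p under 0.05. Its log2 difference was 0.77 ± 0.32 (SE, 95% interval 0.09 to 1.44, adjusted p = 0.49). Without covariates 9 genes were called, of which Hmox1, Nfe2l2, Keap1, Sqstm1, Gclm, Txnrd1 and Srxn1 were higher and Nqo1 and Prdx1 lower, but 58.0% of all genes were called in that fit, 29.6% higher and 28.3% lower. The deposited libraries did not overlap for 7 of the 10 genes, 5 higher and 2 lower, beside 40.8% of all genes, 20.0% higher and 20.8% lower. With 4 libraries a group, the smallest exact permutation p was 0.029, or 0.07 after adjustment over all genes. The α9k1-crush libraries had the lowest scores on the third covariate, -1.51 ± 0.35 (SD, n = 4), against -0.14 ± 0.54 (SD, n = 4) in GFP-crush and 0.74 ± 0.73 (SD, n = 6) in α9k1-naive. The covariates multiplied the variance of this contrast from 0.5 to 3.11 times the residual variance, so that the intervals are wide and do not show that the genes were alike in the crush groups.

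**Figure D2:**
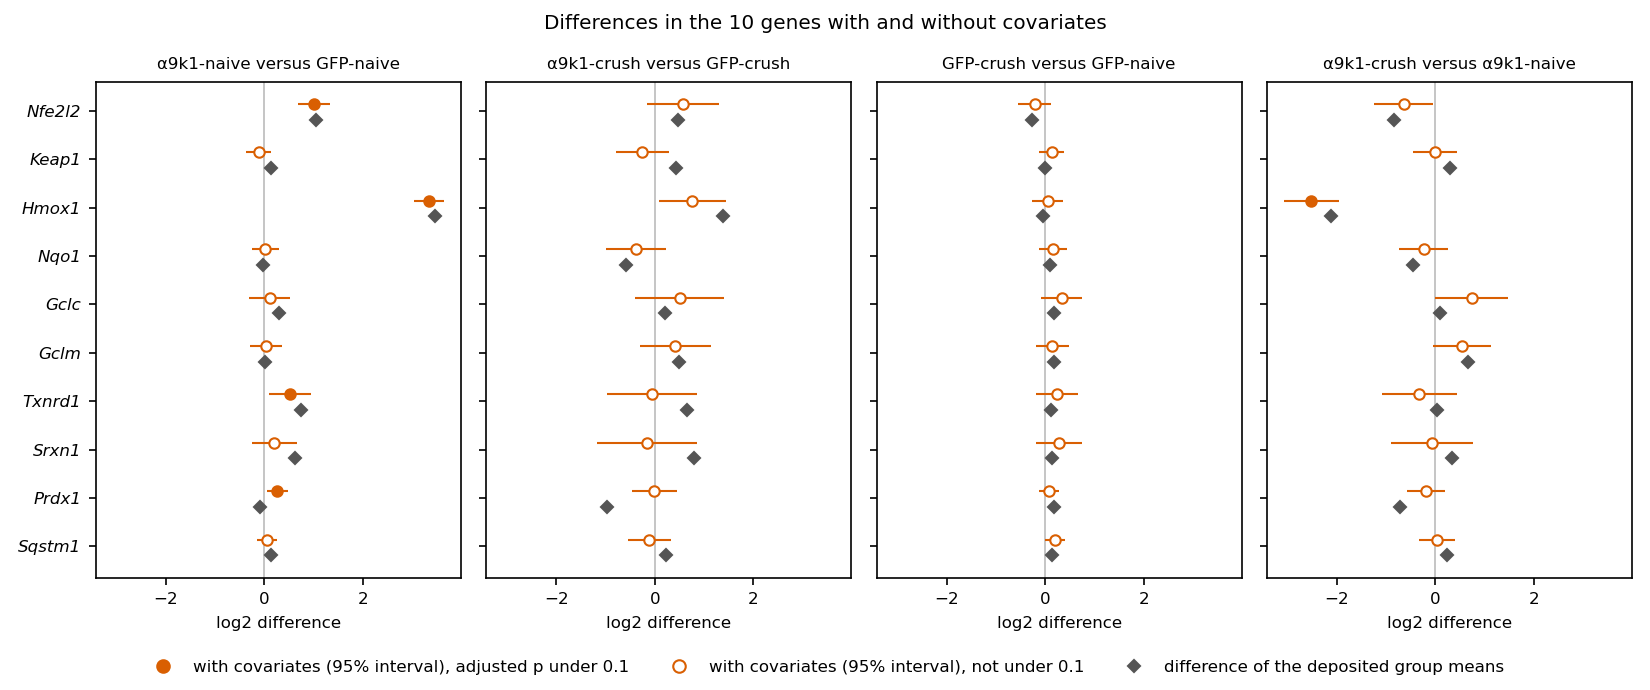
Log2 differences of the 10 genes in the 4 comparisons, with covariates (circles with 95% intervals, filled at an adjusted p under 0.1) and as differences of the deposited group means (diamonds). Circles and diamonds lie close together for GFP-crush against GFP-naive and apart for the comparisons that involve α9k1-crush, as for Prdx1 with -0.01 and -0.98.

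In the GFP groups, crush moved none of the 10 genes past the threshold in the fit with covariates (0 by limma, 0 at an unadjusted p under 0.05) or without them (0 by limma, 1 at an unadjusted p under 0.05), but 1, Sqstm1, after median centring or removal of trends with GC content and length. Over all genes 23.1% were called with covariates, 7.39% higher and 15.7% lower, and 31.1% without covariates. The log2 fold changes lay between -0.21 and 0.33, with a median of 0.16 beside -0.08 for all genes. The deposited libraries were apart for 1 gene, Nfe2l2, which was lower, and for 19.8% of all genes, 7.59% higher and 12.2% lower. In the α9k1 groups Hmox1 was lower with crush, and it was the only one of the 10 genes called in the fit of all 19 libraries with the 3 covariates. Nfe2l2 was also called without α9k1-crush replicate 2. Without covariates 7 genes were called in that comparison, with Hmox1, Nfe2l2, Nqo1 and Prdx1 lower and Gclm, Keap1 and Sqstm1 higher, beside 55.6% of all genes, 28.5% higher and 27.1% lower. In the deposited values Hmox1, Nfe2l2, Nqo1 and Prdx1 lay lower and Gclm and Sqstm1 higher without overlap, beside 33.4% of all genes, 17.4% higher and 16.1% lower. Each group enters 2 of the 4 comparisons, and GFP-naive is the reference in both of its own, so these comparisons are not independent.

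A further 102 genes of the pathway, in 5 lists, were measured of 117 listed. Without crush 15 rose and 13 fell with α9 and kindlin-1, a share close to the 29.1% of all genes. The split was 19 higher to 10 lower once trends with GC content and length were removed, and 20 higher to 23 lower without covariates. Among 17 regulators, 6 rose and 2 fell. The steepest rises were those of Maff, a small MAF partner of Nrf2 (log2 2.62 ± 0.23, SE, from a mean of 2.93 to 5.38), and Cdkn1a, the cell cycle inhibitor p21 that binds Nrf2 (2.61 ± 0.32, SE), both without overlap of the libraries. Mafk, another small MAF named after its values were seen, rose by 2.15 ± 0.23 (SE, limma adjusted p = 1.17e-05). Rbx1, the RING subunit of the CUL3 ligase, fell by 0.32 (SE 0.10) on the log2 scale, and the stress-induced sestrin Sesn2 fell by 0.55 (SE 0.18), a call lost after removal of trends with GC content and length (-0.41, limma adjusted p = 0.12) and without covariates (-0.26, adjusted p = 0.19). For Rbx1 the difference without covariates was -0.66.

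Among 30 glutathione and thioredoxin genes 5 rose and 4 fell without crush, where 11.4% of all genes were called higher and 17.6% lower. The same shares over all genes stand beside the counts of the lists that follow. The glutathione peroxidases Gpx3 and Gpx2 rose by 1.69 ± 0.33 and 0.85 ± 0.16 (SE), whereas glutaredoxin, Glrx, fell by 1.31 (SE 0.21) and the endoplasmic reticulum peroxiredoxin Prdx4 by 0.51 (SE 0.11) on the log2 scale. Among 34 detoxification and export genes 3 rose and 5 fell. Osgin2 and the carbonyl reductase Cbr3 were called higher by 0.97 ± 0.29 and 0.89 ± 0.35 (SE), and the microsomal transferase Mgst3 and the exporter Abcc1 fell by 0.85 and 0.69. Without covariates the difference was 0.33 for Cbr3 (limma adjusted p = 0.38), whose libraries overlapped, and -0.38 for Abcc1. Of 10 NADPH genes only Me1, the cytosolic malic enzyme, was called (0.36 ± 0.10, SE, and 0.55 without covariates). Of 11 haem and iron genes 0 rose and 2 fell, Hmox2, the constitutive haem oxygenase, by 0.25 (SE 0.10) and the ferritin light chain Ftl1 by 0.51 (SE 0.18), or by 0.78 without covariates. Hmox2 levels were 6.93 to 7.13 in GFP-naive and 6.64 to 6.92 in α9k1-naive, without overlap, but the call was lost after median centring (-0.20, limma adjusted p = 0.23) and after removal of trends with GC content and length, as was that of Ftl1 after the latter. Reads of Ftl1 and of the glutathione S-transferase families could be shared with near-identical copies, and their values are uncertain.

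**Figure D3:**
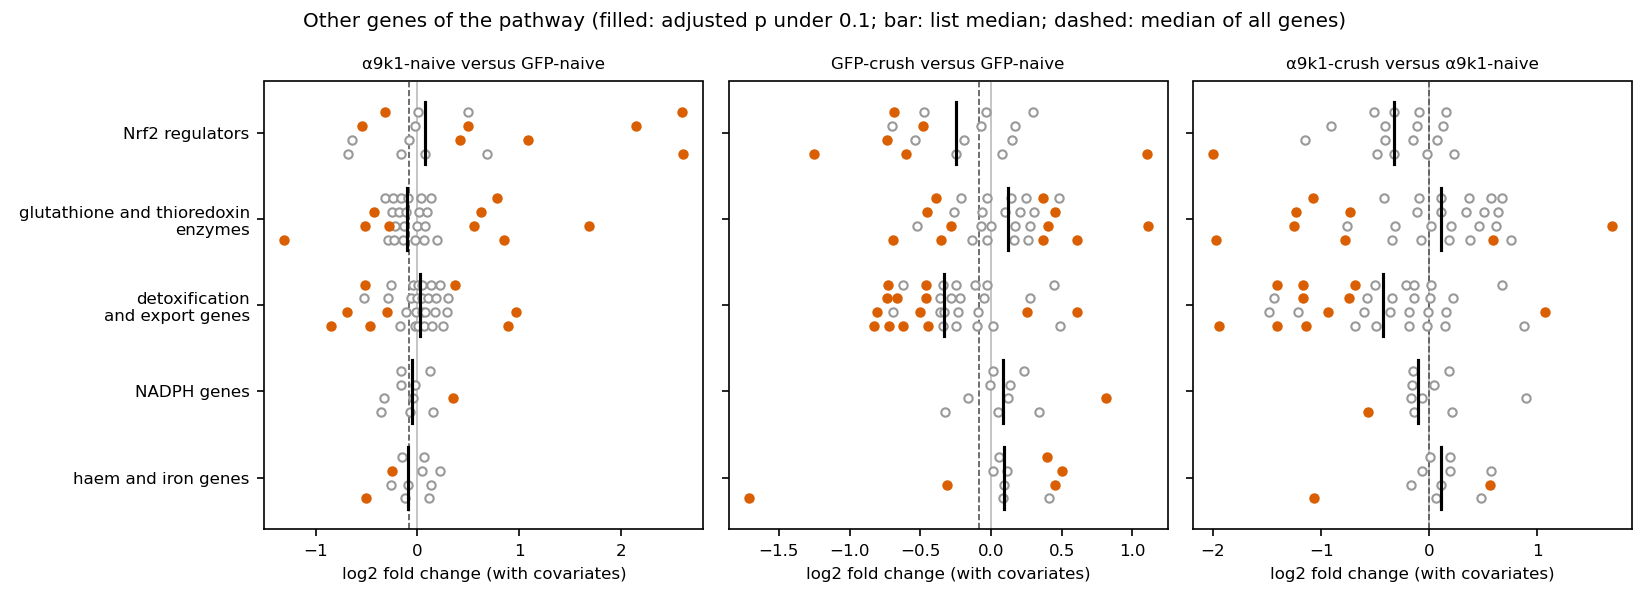
Log2 fold changes with covariates of the 102 other pathway genes by list in 3 comparisons; filled points have an adjusted p under 0.1, black bars are list medians and dashed lines the median of all genes. The regulators spread widely without crush, with Maff at 2.62 and Cdkn1a at 2.61, and the detoxification genes lie mostly to the left in the crush comparisons.

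For GFP-crush against GFP-naive, 13 of the 102 genes were called higher and 23 lower, beside 7.39% and 15.7% of all genes, and 11 of the 23 were among the 34 detoxification and export genes. The direction of that total depended on scaling, with 26 higher and 12 lower after median centring, which moved the median of all genes from -0.08 to 0.06, and 19 higher and 17 lower after removal of trends with GC content and length. The total was 21 without GFP-naive replicate 2 and 22 without replicate 3. The detoxification list had a median of -0.34 and kept its direction under each scaling, with 4 higher and 7 lower and a median of -0.20 after median centring. Abcc1 and Gsta2, a glutathione S-transferase, fell by 0.83 (SE 0.21) and 0.81 (SE 0.16), and Mgst3 and the aldehyde reductase Akr1a1 rose by 0.61 ± 0.14 and 0.26 ± 0.09 (SE), the latter not past the threshold after quantile normalization. Maff fell by 1.25 (SE 0.23) and Mafg by 0.74 (SE 0.13), while Cdkn1a rose by 1.10 ± 0.32 (SE). Of the 30 glutathione and thioredoxin genes 6 were called higher and 5 lower, a split that depended on scaling, with 13 and 1 after median centring and 9 and 3 after removal of trends with GC content and length. Glrx and the mitochondrial superoxide dismutase Sod2 rose by 1.11 ± 0.22 and 0.61 ± 0.12 (SE), whereas the peroxidases Gpx8 and Gpx7 fell by 0.69 (SE 0.15) and 0.45 (SE 0.14), the latter not past the threshold after median centring (-0.31, limma adjusted p = 0.14) or removal of trends with GC content and length. Of the 10 NADPH genes Me3, a mitochondrial malic enzyme, was called (0.81 ± 0.15, SE). Alas1, the first enzyme of haem synthesis, rose by 0.50 ± 0.13 and Fech, the last, by 0.45 ± 0.11 (SE), or 0.30 without covariates. Ftl1 fell by 1.71 (SE 0.18) and Blvrb, a biliverdin reductase, by 0.31 (SE 0.11), the latter not past the threshold after median centring (-0.17, limma adjusted p = 0.32), after quantile normalization (-0.28, adjusted p = 0.12) or without covariates (-0.22, adjusted p = 0.17).

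For α9k1-crush against α9k1-naive 4 of the 102 genes were called higher and 18 lower, beside 4.47% and 5.27% of all genes. The counts were 28 and 46 without covariates, where 28.5% and 27.1% of all genes were called, and 0 and 3 with only the 2 groups compared. Of the 18 genes, 9 were detoxification genes, a list whose median was -0.43 beside 0.00 for all genes. The total of 22 was 13, 14 and 14 without α9k1-naive replicates 1, 2 and 4. The glutathione S-transferases Gsta3 and Gstm1 fell by 1.95 (SE 0.23) and 1.41 (SE 0.23) on the log2 scale. Gsta3 means were 8.29 and 8.36 in GFP-naive and α9k1-naive, 7.59 in GFP-crush and 5.99 in α9k1-crush. Maff was also called lower, with means of 5.38 in α9k1-naive and 3.36 in α9k1-crush. Gpx3 fell by 1.98 on the log2 scale (SE 0.59), Prdx6 by 1.25 (SE 0.36), Me1 by 0.56 (SE 0.17) and Blvrb by 1.06 (SE 0.20). Without covariates the differences of Prdx6, Me1 and Blvrb were smaller, at -0.75, -0.23 and -0.71, and the Me1 libraries overlapped. That of Gpx3 was not smaller, with means of 5.67 in α9k1-naive and 3.35 in α9k1-crush. Glrx rose by 1.69 ± 0.39, Mgst3 by 1.07 ± 0.25, Prdx2 by 0.59 ± 0.17 and Hmox2 by 0.56 ± 0.18 (SE), the last again not past the threshold after median centring. None of the 102 genes was called for α9k1-crush against GFP-crush with covariates, where 0.911% of all genes were called, and 66 were without, where 58.0% of all genes were. With covariates and 1 library left out, 0 to 2 were called. In the interaction Gpx2 (-1.53 ± 0.33, SE) and Gsta3 (-1.22 ± 0.26, SE) were called lower and Ftl1 (1.78 ± 0.37, SE, and 1.08 without covariates) higher, a count of 3 beside 2.2% of all genes. That count was 1 without GFP-crush replicate 2 or GFP-naive replicate 3 and 5 without α9k1-crush replicate 2.

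Markers of other cell types moved between the groups as well. The summed level of 12 macrophage markers, on a log2 scale, was 9.12 to 9.71 in GFP-naive, 10.69 to 11.19 in α9k1-naive, 11.25 to 11.90 in GFP-crush and 10.86 to 11.60 in α9k1-crush, and 9 of the 12 were called higher in α9k1-naive than in GFP-naive. In GFP-crush against GFP-naive 9 of the 12 were also called higher, and Hmox1 was not called. Satellite glia markers ran from 15.61 to 15.98 in GFP-naive, 16.29 to 16.80 in α9k1-naive, 14.75 to 15.04 in GFP-crush and 14.20 to 14.75 in α9k1-crush, with 3 of 10 called higher and 1 lower for α9k1-naive against GFP-naive, 7 of 10 called lower for GFP-crush against GFP-naive and 6 of 10 lower in α9k1-crush than in α9k1-naive. The detoxification genes called lower with crush, 11 of 34 in the GFP groups and 9 of 34 in the α9k1 groups, were so in libraries with lower satellite glia sums, whose part in the result was not tested. Schwann cell markers ran from 13.05 to 13.40 in GFP-naive, 11.50 to 11.90 in α9k1-naive, 13.21 to 13.90 in GFP-crush and 12.39 to 13.39 in α9k1-crush. Of the 8 markers, 7 were called lower and 1 higher for α9k1-naive against GFP-naive. For GFP-crush against GFP-naive 1 was called higher and 1 lower, and for α9k1-crush against α9k1-naive 7 higher and 0 lower. Endothelial and fibroblast sums ran from 4.18 to 6.10 and from 6.79 to 8.29 in α9k1-naive and from 6.72 to 7.23 and from 9.44 to 9.78 in GFP-naive, with 5 of 5 and 5 of 6 markers called lower. They ran from 6.63 to 7.43 and from 8.18 to 8.49 in GFP-crush and from 4.56 to 6.29 and from 7.96 to 8.39 in α9k1-crush. The part of these cells in the results of the 10 genes was not tested.

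Globin transcripts, a sign of red cells, were 10.18 to 10.80 in GFP-naive, 6.95 to 9.06 in GFP-crush and 3.53 to 8.22 in α9k1-crush as the log2 sum of 4 genes. In 1 α9k1-naive library, replicate 3, the sum was 14.40, whereas the other 5 ran from 4.24 to 9.10. Hmox1 was 8.85 in that library and 8.41 to 8.87 in the others. Without that library the log2 fold change of Hmox1 was 3.33 without crush, that of Nfe2l2 was 1.02 and the Hmox1 interaction was -2.51, and all of these remained called.

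**Figure D4:**
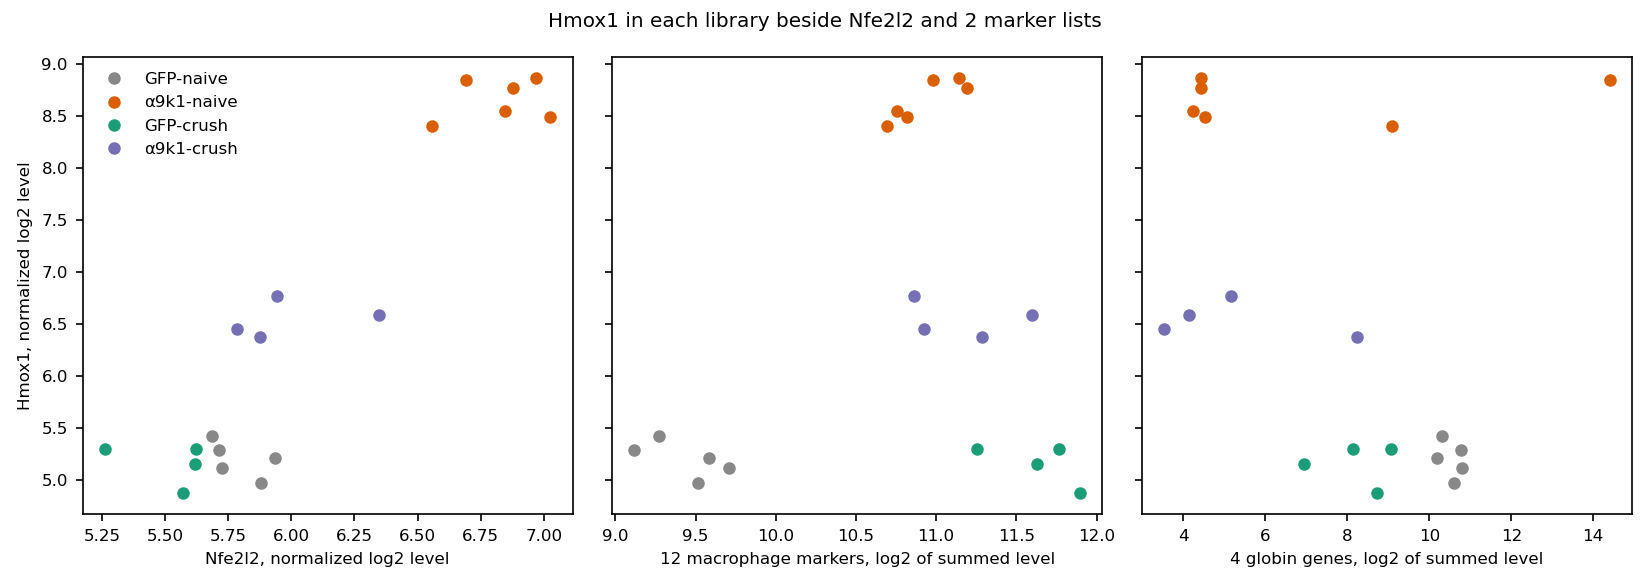
Normalized log2 level of Hmox1 in each of the 19 libraries (vertical axis) against Nfe2l2, the log2 sum of 12 macrophage markers and the log2 sum of 4 globin genes (horizontal axes), coloured by group. The groups form separate clusters. GFP-naive has macrophage sums of 9.12 to 9.71 with Hmox1 at 4.97 to 5.43, and α9k1-naive 10.69 to 11.19 with 8.41 to 8.87. GFP-crush has 11.25 to 11.90 with 4.87 to 5.30, and α9k1-crush 10.86 to 11.60 with 6.38 to 6.77. The part of macrophages or other cells in these levels was not tested.

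Hmox1 and Nfe2l2 shared the order of their α9k1 groups, but the libraries formed separate clusters by group, and once group means were removed their correlation over the 19 libraries was 0.01. Among the genes whose pattern over the 19 libraries was most like that of Hmox1 were Birc2, an inhibitor of apoptosis (Pearson r = 0.985), and Ippk, an inositol phosphate kinase (0.984). The least like was the sodium channel gene Scn7a (-0.975). Their correlations after removal of the group means were 0.53, 0.35 and -0.26. For Nfe2l2 they were Peli1, a ubiquitin ligase (0.979), Ppp1r15a, a regulator of the stress phosphatase (0.978), and Hnrnpf, a splicing factor (0.978), with Caskin1 at the other end (-0.962), and these kept correlations of 0.73, 0.83, 0.77 and -0.74 without group means. For Keap1 they were Thumpd3 (0.924), Slc35c2 (0.913) and Rnf123 (0.894), with Fkbp2 at -0.933, and 0.85, 0.86, 0.79 and -0.87 without group means. These values describe libraries that share group, depth and preparation.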

How the data were processed

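Libraries were made with SMART-Seq v4, which does not mark strand, from sorted cells. Per the methods and labels, the authors aligned the reads to mouse mm10 with STAR, collected metrics with Picard, quantified genes with Salmon, removed genes with fewer than 10 reads in over 80% of samples, took log2 values with a small pseudocount and normalized them for length and depth with cqn. Tool versions are not given in the sources used here. The deposited values are these log2 levels for 12629 genes, with no gene names in the table, so the row order was taken from the deposited gene annotation, whose rows matched (Spearman correlation of row means with the authors' mean level 0.999, and at most 0.078 when shifted by 1 row). Other deposited columns hold the authors' fold changes and p-values for their own comparisons and were not used. The deposited alignment metrics are read counts, fractions and ratios of other kinds made by the authors with Picard and STAR, and 48 of them were scaled and reduced to 3 principal components (45.9, 24.1 and 11.5% of their variance). In 5 of the metric columns the values do not match the header and look displaced from neighbouring columns, and scaled components do not depend on column names.

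The log2 values were fitted with limma 3.58.1 in R 4.3.3, with 4 group means and these components. The batch term of the authors' model could not be included, since the labels give no batch. Each gene was also tested by a 2-sided exact permutation of the deposited values. P-values were Benjamini-Hochberg adjusted over all genes. Depth is known only as read pairs, so no counting interval was given. Both tests were checked on simulated data. The labels call samples replicates without saying that they came from separate animals, so p-values measure the spread between these samples. Same-numbered libraries did not deviate together (median correlation 0.02 over 25 pairs), so no block was used.

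The 10 genes and all lists were chosen with earlier results of these data known. Named in each comparison were the 10 genes, the called genes with the 2 highest and 2 lowest log2 fold changes in each pathway list, and the 3 most and 1 least correlated genes for Nfe2l2, Keap1 and Hmox1, of which 1 is not reported here. Motifs were searched in RefSeq promoters. Alternatives left out the covariates, the other groups, the lowest 25% of genes or 1 library, rescaled the values, weighted libraries or added a replicate block.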

Additional observations from a re-analysis of the deposited data

Results flagged for a closer look

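The α9k1 effect on Hmox1 differed between the crush conditions, by a log2 difference of -2.57 in the limma interaction. In 4 of the 40 combinations of gene and group, 1 library stood apart from the rest, and chance gives this in about 1 of 20 groups. The gap to the nearest library as a share of the group's range was 0.853 for Nfe2l2 in GFP-crush, where replicate 1 was lowest at 5.26. It was 0.712 for Nqo1 in GFP-naive, where replicate 2 was lowest at 5.72. It was 0.893 for Gclc in GFP-crush, where replicate 1 was highest at 5.05, and 0.929 for Sqstm1 in GFP-crush, where replicate 3 was lowest at 9.81.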

How the results depend on the processing

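Hmox1 and Nfe2l2 without crush, Hmox1 between the α9k1 groups and the Hmox1 interaction were called in every alternative run and in all 19 fits that left out 1 library, with log2 ranges over the alternatives of 3.26 to 3.45, 0.88 to 1.33, -2.60 to -2.11 and -2.71 to -2.06. Txnrd1 and Prdx1 without crush were called in 6 and 4 of 8 alternatives. With a replicate block, the number of the 10 genes called was 2 for α9k1-naive against GFP-naive, 1 for GFP-crush against GFP-naive, 2 for α9k1-crush against α9k1-naive, and that of other pathway genes called was 5 for α9k1-crush against α9k1-naive, 0 for the interaction. Without covariates, the number of the 10 genes called was 9 for α9k1-crush against GFP-crush, 7 for α9k1-crush against α9k1-naive and 5 for the interaction. That of other pathway genes called was 43 for α9k1-naive against GFP-naive, 66 for α9k1-crush against GFP-crush, 74 for α9k1-crush against α9k1-naive and 47 for the interaction. In that fit 58.0% of all genes were called for α9k1-crush against GFP-crush and 55.6% for α9k1-crush against α9k1-naive. No share over all genes is given for the other counts in this paragraph, which show only how the calls moved with the settings. After median centring, the number of the 10 genes called was 1 for GFP-crush against GFP-naive, and that of other pathway genes called was 1 for α9k1-crush against GFP-crush, 5 for the interaction. After removal of trends with GC content and length, the number of the 10 genes called was 1 for GFP-crush against GFP-naive, and that of other pathway genes called was 1 for α9k1-crush against GFP-crush. With library weights, the number of other pathway genes called was 3 for α9k1-crush against GFP-crush, 5 for the interaction. With only the 2 groups compared, the number of other pathway genes called was 17 for GFP-crush against GFP-naive, 3 for α9k1-crush against α9k1-naive. Without covariates, log2 changes that turned sign were Keap1 0.13, Nqo1 -0.036, Prdx1 -0.081 for α9k1-naive against GFP-naive, and Keap1 0.42, Sqstm1 0.23, Txnrd1 0.65, Srxn1 0.80 for α9k1-crush against GFP-crush, and Keap1 -0.0049, Hmox1 -0.049 for GFP-crush against GFP-naive, and Keap1 0.29, Txnrd1 0.028, Srxn1 0.33 for α9k1-crush against α9k1-naive, and Keap1 0.29, Sqstm1 0.099, Gclc -0.085, Srxn1 0.19 for the interaction. After removal of trends with GC content and length, log2 changes that turned sign were Keap1 0.011 for α9k1-naive against GFP-naive. With a replicate block, log2 changes that turned sign were Nqo1 -0.13, Sqstm1 -0.12, Gclc -0.0046 for α9k1-naive against GFP-naive, and Prdx1 0.058, Srxn1 0.070 for α9k1-crush against GFP-crush, and Keap1 0.030, Nqo1 0.030, Srxn1 0.053 for α9k1-crush against α9k1-naive. With only the 2 groups compared, log2 changes that turned sign were Keap1 0.19, Sqstm1 0.024, Nfe2l2 -0.19, Gclm -0.072, Srxn1 0.65 for α9k1-crush against GFP-crush, and Prdx1 -0.050 for GFP-crush against GFP-naive, and Keap1 0.20, Sqstm1 -0.15, Txnrd1 0.85, Srxn1 0.59 for α9k1-crush against α9k1-naive. After quantile normalization, log2 changes that turned sign were Sqstm1 0.042 for α9k1-crush against GFP-crush. With library weights, log2 changes that turned sign were Prdx1 0.059 for α9k1-crush against GFP-crush, and Keap1 0.015 for α9k1-crush against α9k1-naive. After median centring, log2 changes that turned sign were Keap1 0.0076 for α9k1-crush against α9k1-naive. With 1 library left out, the counts ranged over 2 to 4 of the 10 genes called for α9k1-naive against GFP-naive, 0 to 2 other pathway genes called for α9k1-crush against GFP-crush, 0 to 1 of the 10 genes called for GFP-crush against GFP-naive, 21 to 41 other pathway genes called for GFP-crush against GFP-naive, 1 to 2 of the 10 genes called for α9k1-crush against α9k1-naive, 13 to 27 other pathway genes called for α9k1-crush against α9k1-naive, 1 to 5 other pathway genes called for the interaction. Log2 changes that turned sign in some of these fits ranged over -0.040 to 0.082 for Nqo1 in α9k1-naive against GFP-naive, -0.076 to 0.099 for Sqstm1 in α9k1-naive against GFP-naive, -0.041 to 0.11 for Gclm in α9k1-naive against GFP-naive, -0.086 to 0.34 for Srxn1 in α9k1-naive against GFP-naive, -0.29 to 0.33 for Txnrd1 in α9k1-crush against GFP-crush, -0.14 to 0.13 for Prdx1 in α9k1-crush against GFP-crush, -0.40 to 0.13 for Srxn1 in α9k1-crush against GFP-crush, -0.029 to 0.17 for Hmox1 in GFP-crush against GFP-naive, -0.073 to 0.097 for Keap1 in α9k1-crush against α9k1-naive, -0.034 to 0.13 for Sqstm1 in α9k1-crush against α9k1-naive, -0.27 to 0.34 for Srxn1 in α9k1-crush against α9k1-naive, -0.58 to 0.22 for Srxn1 in the interaction. Without counts, the precision that depth gives each gene is unknown. The cause of these moves was not tested, except that a fit of 2 groups has fewer libraries. The replicate numbers of same-numbered libraries did not pair them, with correlations of -0.27 to 0.15, and the block counted 2 of the 10 genes without crush. With the block, Txnrd1 without crush was 0.22 (limma adjusted p = 0.66), and Gclc was called for GFP-crush against GFP-naive (0.40, adjusted p = 0.081) and for α9k1-crush against α9k1-naive (1.45, adjusted p = 0.065).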
